A study of Homo sapiens with 24 samples.

Results

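The genes described here encode the proteins of the small nuclear ribonucleoproteins (snRNPs) of the human spliceosome and of the complexes that act beside them on the branch point and in the catalytic core. They were chosen by name: 39 genes were listed, and 38 of them had a gene group of their own among the 13236 groups of the count tables. SNRPB, a protein of the Sm ring, was counted only in a group merged with a neighbouring gene and has no value here. The 38 genes held 623 bins, the exon and intron pieces into which the tables divide each gene. Of these bins, 29 in 20 genes carry the submitters' class of detained intron.

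The spliceosome removes introns from pre-mRNA. The U1 snRNP reads the 5' splice site, SF1 and the U2AF pair read the branch point, the polypyrimidine tract and the 3' splice site, and the U2 snRNP then takes the branch point. The U4/U6.U5 tri-snRNP joins next, and its helicases and the PRP19/CDC5L complex rebuild the assembly into its catalytic form. A detained intron is one that stays in a polyadenylated transcript held in the nucleus, so the transcript is not translated until the intron is removed, and genes of splicing factors are known to carry many such introns.

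HEK293T cells, an established human embryonic kidney line, were given one of 2 inhibitors of protein O-GlcNAc cycling, or the solvent DMSO, and polyadenylated RNA was sequenced by strand. OSMI-2 at 10 µM inhibits OGT, the enzyme that adds O-linked N-acetylglucosamine to proteins, and TMG at 5 µM inhibits OGA (MGEA5), the enzyme that removes it. Each drug was given for 2 h or 6 h beside DMSO libraries of its own, which makes 8 groups: DMSO and OSMI-2 at 2 h, DMSO and OSMI-2 at 6 h, DMSO and TMG at 2 h, and DMSO and TMG at 6 h. All groups are of 1 unmodified cell line, nothing says whether libraries of a group came from separate cultures, and p-values therefore measure the spread between these libraries, which may be technical. Groups had 3 libraries each except OSMI-2 at 6 h, which had 2; the third was not analysed here.

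Libraries held 39.5 to 100.2 M (mega) bin counts, and levels are given as CPM, counts per M counts of the library. The markers listed for the line were uneven: LIN28B had a median of 59.4 CPM with libraries from 4.06 to 113, NEFL 26.7 and INA 15.9, while PAX2 had 2.25, EYA1 1.76, NEFM 0.665, SALL1 0.465 and LHX1 0.310. PAX8 was not analysed here. The blood marker HBA1 had a median of 0.051 CPM. Library a of the DMSO 6 h group in the OSMI-2 experiment stood apart: the slope of log2 CPM on gene GC content was 0.357 per 10 points there, against 0.938 to 1.06 in the other 4 libraries of that comparison. The slope also differed by experiment. It was 0.357 to 1.06 over all libraries of the OSMI-2 experiment and -0.586 to -0.294 over those of the TMG experiment. The share of all counts in detained introns was 0.756 to 1.21% in the DMSO 6 h libraries of the OSMI-2 experiment and 0.232 to 0.328% in its other libraries. In the TMG experiment it was 0.377 to 0.669%. The part of these library differences in the results below was not tested.

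Gene levels were summed over the bins that are not detained introns. Per kilobase of those bins, the DMSO 2 h libraries of the TMG experiment had the highest mean for the Sm-ring gene SNRPE, at 371 ± 19.5 CPM per kb (SD, n = 3). PRPF19, the ubiquitin ligase of the PRP19 complex, followed at 311 ± 10.7. The lowest levels were those of XAB2 at 28.2 ± 0.160 and CRNKL1 at 13.1 ± 0.365, both proteins that come with the PRP19 complex. These neighbours in the order did not overlap between libraries. In the DMSO 2 h libraries of the OSMI-2 experiment the highest level was that of the Sm-ring gene SNRPD2, at 456 ± 86.5 CPM per kb, whose libraries overlapped with those of PRPF19 at 436.5 ± 31.6. CRNKL1 was lowest there too, at 3.37 ± 0.366. The part of the differing GC slopes of the experiments in these levels was not tested. SNRPE and SNRPG have processed pseudogenes, so their counts are uncertain where reads could have been split.

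With OSMI-2 for 2 h, no snRNP protein gene passed the threshold. In edgeR's quasi-likelihood test 0 of 38 passed an adjusted p of 0.05, where 0% of the 12343 genes tested passed, and 2 of 38 and 160 of all had an unadjusted p under 0.05; DESeq2 called 0 of 38. Log2 fold changes ran from -0.39 to 0.18 with a median of -0.05, against -0.01 over all genes. SNRNP70, the U1 protein that holds the first stem loop of U1 RNA, was at 972, 862 and 1013 CPM with DMSO and at 941, 902 and 942 CPM with OSMI-2. SNRPD2 was at 740, 628 and 478 CPM with DMSO and at 579, 768 and 397 CPM with OSMI-2. SF3B2, a subunit of the SF3B complex of U2, was at 834, 828 and 864 CPM with DMSO and at 856, 868 and 760 CPM with OSMI-2. In each of these genes the libraries of both groups overlapped. U2AF2, which binds the polypyrimidine tract, was at 827, 823 and 978 CPM with DMSO and at 961, 866 and 1019 CPM with OSMI-2. PRPF8, the scaffold of the catalytic core, was at 1148, 1295 and 1316 CPM with DMSO and at 1385, 1141 and 1135 CPM with OSMI-2. PRPF19 was at 925, 930 and 1014 CPM with DMSO and at 1005, 977 and 944 CPM with OSMI-2. These too overlapped between the groups. In 3 of 38 genes the groups did not overlap, and all of those were lower with OSMI-2. They were CDC5L (log2 fold change -0.35), CRNKL1 (-0.37) and PRPF38B (-0.27), at DMSO means of 19.8, 13.1 and 27.9 CPM. The share of all genes without overlap at 2 h is not given here.

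With OSMI-2 for 6 h, 1 of the 38 genes changed, where 4.94% of the 12484 genes tested passed, 2.57% higher and 2.37% lower. SNRNP40, a WD-repeat protein of the U5 snRNP, fell. It was at 151, 163 and 239 CPM in the DMSO libraries and at 107 and 73.5 CPM in the OSMI-2 libraries, so both treated libraries lay below all DMSO libraries. Its log2 fold change was -1.03 ± 0.32 (SE; adjusted p = 0.0399, edgeR). The adjusted p was 0.113 with median-of-ratios size factors and 0.0635 in DESeq2. SNRNP40 varied widely between libraries at 2 h. Scaled within that comparison, it was at 166 ± 68.7 CPM with DMSO and 133.5 ± 62.7 with OSMI-2 (SD, n = 3 each). Of the other members, 29 had values above 0 and 8 below, and the median of all 38 was 0.32 against 0.15 over all genes. The scaling moves that median of all genes: it was 0.30 with median-of-ratios size factors and -0.09 with TMM over genes alone, and the members' median was 0.48 and 0.08 there. Of all genes called, 52.0% were higher, against 75.2% and 6.42% under those scalings.

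**Figure D1:**
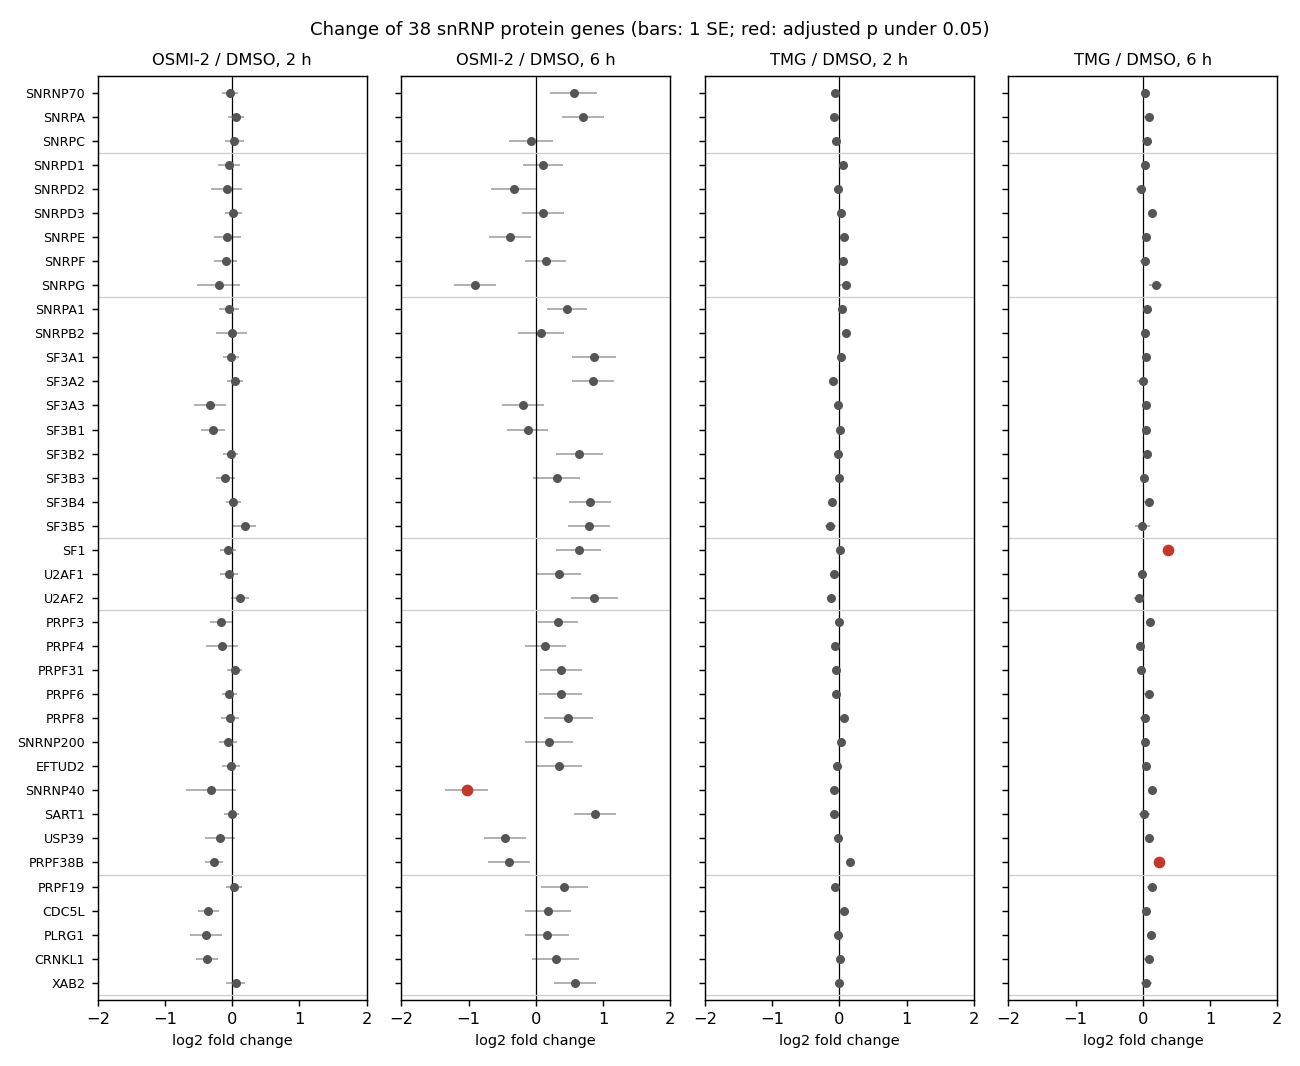
Log2 fold change (x axis) of each of 38 snRNP protein genes (y axis, grouped by role with grey lines between roles) in the 4 drug comparisons, with bars of 1 SE and red points for an adjusted p under 0.05. Red points are SNRNP40 with OSMI-2 at 6 h, and SF1 and PRPF38B with TMG at 6 h.

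The values at 6 h of OSMI-2 are given by role, and differences between roles were not tested. The U2 snRNP genes ran from -0.19 to 0.86 on the log2 scale with a median of 0.56 over 10 genes. SF3A1 and SF3A2, subunits of the SF3A complex that helps U2 onto the branch point, had 0.86 ± 0.33 and 0.86 ± 0.31 (SE; adjusted p = 0.0936 and 0.0809, edgeR). The 3 genes of branch point and 3' splice site recognition had values from 0.35 to 0.87, and U2AF2 was at 504, 821 and 824 CPM with DMSO and at 1266 and 1353 CPM with OSMI-2. Both treated libraries lay above every DMSO library, with an adjusted p of 0.112. Of the U1 proteins, SNRNP70 was at 571, 810 and 924 CPM with DMSO and at 1134 and 1144 CPM with OSMI-2, without overlap, and SNRPC had a log2 fold change of -0.07. In the Sm ring the range was -0.90 to 0.15, with SNRPG lowest (adjusted p = 0.0639). SNRPD2 was at 382, 520 and 634 CPM with DMSO and at 506 and 311 CPM with OSMI-2, which overlap.

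The genes of the tri-snRNP class, in which PRPF38B was counted, ran from -1.03 to 0.89 with a median of 0.33. SART1, which bridges the tri-snRNP during assembly, had the highest value of the 38: it was at 126, 177 and 202 CPM with DMSO and at 293 and 330 CPM with OSMI-2 (log2 fold change 0.89 ± 0.31, SE; adjusted p = 0.0715, edgeR). PRPF8 was at 1174, 1643 and 1596 CPM with DMSO and at 2126 and 1994 CPM with OSMI-2. Neither gene overlapped between its groups. The 5 genes of the PRP19/CDC5L class had values from 0.17 to 0.58; PRPF19 was at 615, 984 and 1044 CPM with DMSO and at 1268 and 1102 CPM with OSMI-2. SF3B2 was at 509, 721 and 851 CPM with DMSO and at 1145 and 1028 CPM with OSMI-2. In 17 of the 38 genes the groups did not overlap, SNRNP40 among them, and the same held for 47.2% of the 12484 genes tested, so the members were near the share of all genes.

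Leaving out libraries moved the count of genes past the threshold. Without DMSO library a of this comparison 21 of 38 genes passed, 19 higher and 2 lower, where 42.4% of the 12435 genes tested passed. The largest rise was then that of CRNKL1 at 0.83 ± 0.17 (SE; adjusted p = 0.00915, edgeR), next CDC5L at 0.81 ± 0.14 and the U2 protein SNRPA1 at 0.80 ± 0.12, and SNRNP40 and SNRPG fell. U2AF2, SF3A1, SF3A2 and SART1 had 0.72, 0.71, 0.77 and 0.76. Without any other single library, DMSO or OSMI-2, 0 of 38 passed. With the linear GC trend of each library removed and all libraries kept, 12 of 38 passed, 11 of them higher, where 26% of all genes passed. DESeq2 called 4 of 38, all higher, where it called 9.75% of all genes.

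The DMSO libraries of the OSMI-2 experiment themselves differed by time. From 2 h to 6 h of DMSO, 11 of 38 genes fell and 0 rose, where 18.5% of all genes passed, 4.59% higher and 14% lower; SART1 (-0.99), SF3B4 (-0.96) and SF1 (-0.92) had the largest falls. With TMM over genes alone this count was 0, where 9.15% of all genes passed. Of all genes called, 74.0% were then higher, against 24.8%. Without DMSO 6 h library a the count of members was 21, where 37.2% of all genes passed. Without b it was 4 and without c 6. Without DMSO 2 h library a, b or c it was 0, 1 or 2. For these other libraries the share of all genes is not given here. The 6 h comparison of OSMI-2 uses the same DMSO 6 h libraries. In the TMG experiment, DMSO at 6 h against 2 h gave 8 genes higher and 7 lower, where 45.9% of all genes passed, 16.3% higher and 29.6% lower, and SF1 again fell, by 0.735. With TMM over genes alone 15 were higher and 3 lower, where 47.4% of all genes passed.

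With TMG for 2 h no member passed, where 7.91% of the 12361 genes tested did, 1.25% higher and 6.67% lower; 3 of 38 and 2873 of all had an unadjusted p under 0.05, and DESeq2 called 1 of 38. In DESeq2 10.5% of all genes passed. Member values in edgeR ran from -0.13 to 0.15. SNRNP70 was at 402, 382 and 362 CPM with DMSO and at 370, 362 and 363 CPM with TMG. SNRPD2 was at 298, 289 and 280 CPM with DMSO and at 299, 281 and 273 CPM with TMG. SF3B2 was at 625, 596 and 610 CPM with DMSO and at 597, 591 and 618 CPM with TMG. These groups overlapped. U2AF2 was at 538, 489 and 477 CPM with DMSO and at 476, 444 and 458 CPM with TMG, just without overlap (log2 fold change -0.13 ± 0.05, SE; adjusted p = 0.145, edgeR). PRPF8 was at 1091, 1214 and 1172 CPM with DMSO and at 1242, 1202 and 1202 CPM with TMG. PRPF19 was at 738, 676 and 665 CPM with DMSO and at 676, 649 and 673 CPM with TMG. Both of these overlapped.

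With TMG for 6 h, 2 of 38 genes rose, SF1 and PRPF38B, and none fell, where 6.03% of the 12103 genes tested passed, 1.19% higher and 4.84% lower. SF1 is the protein that first binds the branch point. It was at 398, 356 and 374 CPM with DMSO and at 499, 486 and 470 CPM with TMG, and every TMG library lay above every DMSO library. Its log2 fold change was 0.37 ± 0.06 (SE; adjusted p = 0.00317, edgeR). At 2 h, scaled within that comparison, SF1 had means of 611 CPM with DMSO and 617 CPM with TMG. From 2 h to 6 h of DMSO SF1 fell by 0.735 on the log2 scale. Both comparisons use the same DMSO 6 h libraries, so neither value is a check of the other. PRPF38B, a protein related to a subunit of the spliceosome's B complex, was at 111, 125 and 119 CPM with DMSO and at 141, 143 and 136 CPM with TMG. These groups did not overlap either (0.24 ± 0.06; adjusted p = 0.0303). The other 36 genes had values from -0.05 to 0.19. Without DMSO 6 h library a of this comparison 10 of 38 passed, all higher, and in a fit of all libraries 0 did. The share of all genes in these fits is not given here. Without DMSO 6 h library c, or without any one of the TMG libraries, 1 passed, SF1.

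**Figure D2:**
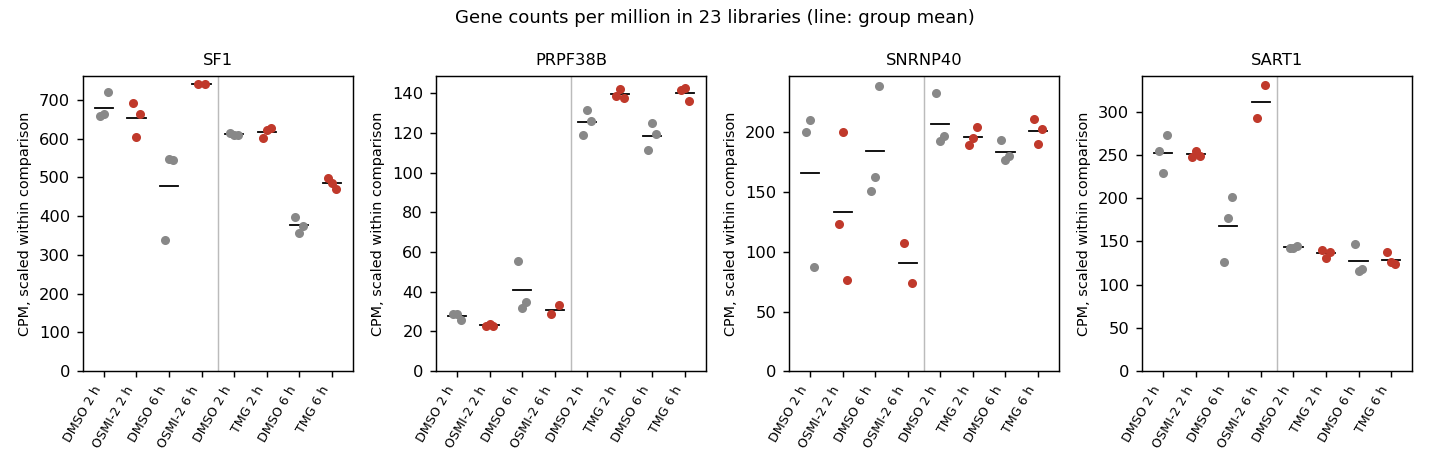
CPM (y axis, scaled by TMM within each comparison) of SF1, PRPF38B, SNRNP40 and SART1 in 23 libraries, with DMSO in grey, drug in red and the mean of each group as a line; the vertical line parts the OSMI-2 experiment from the TMG experiment. SF1 with TMG at 6 h sits at 470 to 499 CPM above its DMSO libraries at 356 to 398, and SNRNP40 with OSMI-2 at 6 h sits at 73.5 and 107 CPM below its DMSO libraries.

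Other genes of the pathway were counted from lists. Of 69 other spliceosome genes tested, none passed with OSMI-2 at 2 h. At 6 h of OSMI-2, where 4.94% of all genes passed, PHF5A, another subunit of SF3B, fell by 1.36 ± 0.32 on the log2 scale (SE; adjusted p = 0.00542, edgeR), and the list's median was 0.09. At 2 h of TMG, where 7.91% of all genes passed, 1 of 69 rose, SRRM2, a large SR-related protein of nuclear speckles (0.20 ± 0.06). At 6 h of TMG 3 of 69 rose and none fell, where 6.03% of all genes passed, led by SMNDC1 (0.31 ± 0.06), a relative of the SMN protein found in the spliceosome, and RNPC3 (0.30 ± 0.09), a protein of the minor spliceosome. The medians were 0.03 and 0.06. Of 25 genes of snRNP assembly, 0 passed with OSMI-2 at either time. With TMG, under the same shares of all genes, 1 of 25 passed at each time: at 2 h PHAX, the export adaptor of snRNAs, rose by 0.18 ± 0.06 and at 6 h GEMIN6, a subunit of the SMN complex, fell by 0.32 ± 0.08.

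All 11 genes of the tri-snRNP class, in which PRPF38B was counted, had at least 1 detained intron, 18 in all. Counted as bins, the U2 snRNP had 5 in 4 genes, SF1 and U2AF2 had 3, and the PRP19/CDC5L class had 2 in 2 genes. The 5 include the adjoining bins E020 and E021 of SF3B2. Among the U1 proteins only SNRNP70 had 1, and the 6 Sm-ring genes with a value had none. The value given is the intron's count as a percent of the count in the other bins of its gene. It grows with the length of the intron, so it orders libraries but not introns. One 6-base bin of SF3B2 did not pass the filter on low counts in any comparison, and the 28 others are those tested with OSMI-2 at 6 h.

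With OSMI-2 for 6 h, 28 of 28 introns were lower relative to their gene than with DMSO, where 89.3% of the 4616 introns tested passed in limma's moderated test, 0.195% higher and 89.1% lower. Of the 28, CDC5L E016 and PRPF4 E012 reached the minimum mean of 10 counts only through the DMSO 6 h group, with 9 and 9 and with 10 and 5 counts in the OSMI-2 libraries. Their falls were favoured by that filter and support nothing; apart from them 26 of 26 were lower. The median log2 change of the 28 was -2.21, against -1.63 over all introns tested, and they ran from -3.98 to -0.80. That median includes CDC5L E016 and PRPF4 E012. Introns of that kind were not taken out of the share and median over all introns. As counts against library size, 27 of 28 fell in edgeR's test, where 86.9% of 4677 passed, 0.599% higher and 86.3% lower; the remaining one, an intron of PRPF6, had -0.42 (adjusted p = 0.146). In 28 of 28 the OSMI-2 libraries lay below all DMSO libraries of 6 h in share of the gene, which held for 91.6% of the 4616 introns. The counts of 27 and 28 include CDC5L E016 and PRPF4 E012, which support nothing here either.

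The largest change was that of the 3363-base intron E021 of EFTUD2, the GTPase of U5. It is at chr17:42949939-42953301 on the minus strand in the hg19 coordinates of the tables. Its share was 0.450, 0.318 and 0.260% of the gene in the DMSO 6 h libraries and 0.00964 and 0.0359% in the OSMI-2 6 h libraries. The last 2 rest on 4 and 18 counts. The log2 change relative to the gene was -3.98 ± 0.33 (SE; adjusted p = 2.76e-30, limma). Both treated libraries lay far below all DMSO libraries of 6 h. At 2 h this intron had 0.0725, 0.0754 and 0.0338% with DMSO and 0.0503, 0.0576 and 0.0562% with OSMI-2.

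Intron E021 of SF3B2, 4210 bases at chr11:65831207-65835416 on the plus strand, came next. It had 0.935, 0.893 and 0.586% with DMSO at 6 h and 0.130 and 0.0717% with OSMI-2 (log2 change -3.01 ± 0.28, SE; adjusted p = 2.08e-24, limma). At 2 h its shares were 0.121 to 0.167% with DMSO and 0.126 to 0.143% with OSMI-2, so at 6 h one OSMI-2 library lay inside the DMSO range of 2 h and the other below it, and the DMSO libraries stood above both. Intron E007 of PRPF8, 1749 bases at chr17:1555083-1556831 on the minus strand, had 0.251, 0.177 and 0.167% with DMSO and 0.0276 and 0.0235% with OSMI-2 (-2.90 ± 0.31; adjusted p = 1.13e-18). Here the treated libraries lay below the DMSO libraries of 2 h as well, which had 0.0463 to 0.0711%. Intron E006 of U2AF2, 662 bases at chr19:56173206-56173867 on the plus strand, had 0.980, 0.599 and 0.502% with DMSO and 0.0992 and 0.0921% with OSMI-2 (-2.79 ± 0.28; adjusted p = 1.96e-20).

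The intron with the most reads was E010 of SNRNP70, 2460 bases at chr19:49605431-49607890 on the plus strand. It had 13.5, 9.44 and 7.73% of the gene in the DMSO 6 h libraries and 1.84 and 2.69% with OSMI-2, from 999 to 4253 counts (-2.16 ± 0.16, SE; adjusted p = 7.99e-40, limma). At 2 h DMSO gave 1.98, 2.15 and 2.46% and OSMI-2 gave 1.95, 2.02 and 2.53%. The DMSO 6 h libraries thus held the high values, and the OSMI-2 libraries of both times overlapped in range with the DMSO libraries of 2 h. SF1, the branch point protein, also had its high values in the DMSO 6 h libraries for its intron E014, 1055 bases at chr11:64537881-64538935 on the minus strand: 4.22, 3.01 and 2.47% with DMSO at 6 h, 0.621 and 0.450% with OSMI-2 at 6 h, and 0.410 to 0.628% with DMSO at 2 h. The smallest change, -0.80 ± 0.28, was that of intron E021 of PRPF6, a bridge between U4/U6 and U5.

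**Figure D3:**
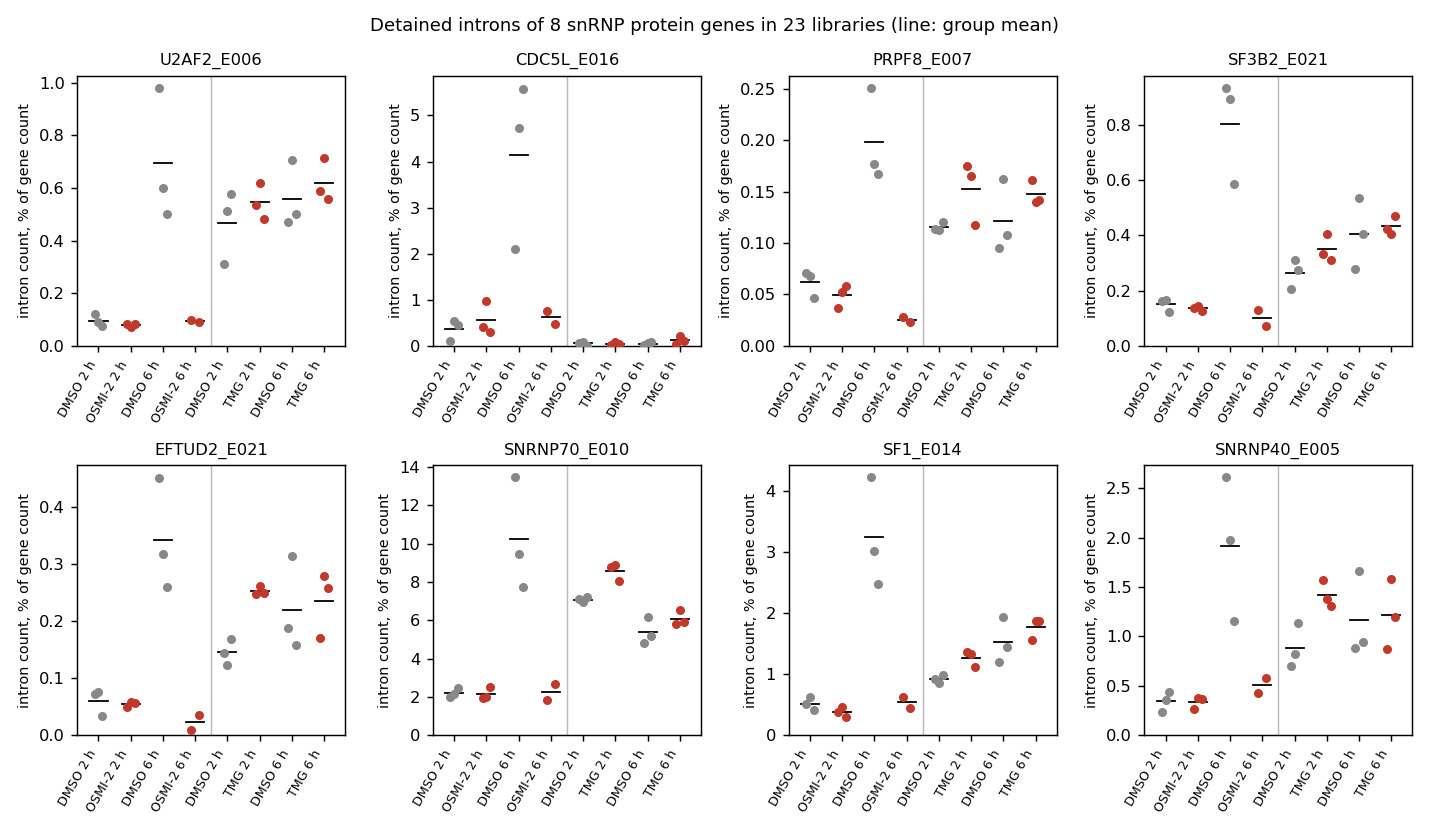
Count of a detained intron as a percent of the count in the other bins of its gene (y axis) in 23 libraries for 8 introns, with DMSO in grey, drug in red and group means as lines; the vertical line parts the OSMI-2 experiment from the TMG experiment. In all 8 panels the DMSO 6 h libraries of the OSMI-2 experiment are above the other libraries of that experiment, and OSMI-2 at 6 h sits near or below the 2 h groups.

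In 28 of 28 introns the share in every DMSO 6 h library of the OSMI-2 experiment was above that in every DMSO 2 h library, as in 89% of the 4616 introns. In 27 of 28 this DMSO 6 h group had the highest mean of the 8 groups, as in 80.1% of all. OSMI-2 at 6 h overlapped with DMSO at 2 h in 22 of 28 introns, against 66.5% of all, and was below it in 5 and above it in 1. CDC5L E016 and PRPF4 E012 are among the 28 only through the DMSO 6 h group. Their part in the counts of high DMSO 6 h shares supports nothing. As counts, 26 of 28 introns rose from DMSO 2 h to DMSO 6 h in that experiment, where 90.3% of 4472 introns passed, 88.5% higher and 1.79% lower, with a median of 1.68 for the members. In the TMG experiment 1 of 27 rose over the same time in DMSO, an intron of the helicase gene SNRNP200, where 21.9% of 4095 passed, 21% higher and 0.904% lower. Without DMSO 6 h library a this count was 5, and without any other library of that comparison 0. The 6 h comparison of OSMI-2 and the DMSO time comparison share the DMSO 6 h libraries, so the values are given side by side and neither is a check of the other.

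Some of these introns were near the floor of the data outside the DMSO 6 h libraries. CDC5L, a core protein of the PRP19 complex, had 40 to 42 counts in its intron there, 9 in each OSMI-2 6 h library and 1 to 5 in the DMSO 2 h libraries. It was not tested in the TMG comparisons. With OSMI-2 for 2 h, 0 of 26 introns passed relative to their gene, where 0.0643% of 3111 passed; 1 of 26 and 136 of all had an unadjusted p under 0.05. As counts 0 of 25 passed in edgeR's test and in DESeq2, where 0.129% of 3107 passed in the former. In the U2 gene SF3A2 intron E007 had 0.754, 0.718 and 0.695% with DMSO and 0.626, 0.542 and 0.731% with OSMI-2 at 2 h, which overlap. In XAB2, intron E012 had 0.338, 0.453 and 0.366% with DMSO and 0.330, 0.444 and 0.353% with OSMI-2. In PRPF38B, intron E008 had 1.88, 1.57 and 1.98% with DMSO and 1.68, 1.23 and 2.505% with OSMI-2, again with overlap.

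With TMG for 2 h, 6 of 27 introns rose relative to their gene and none fell, where 9.8% of the 4031 introns tested passed, 9.75% higher and 0.0496% lower. The same number of members rose as counts in edgeR's test, where 9.81% of 4056 passed, 9.69% higher and 0.123% lower. The median log2 change of the members was 0.37, against 0.30 over all introns tested, and 26 of the 27 had values above 0. Intron E017 of SNRNP200, the helicase that unwinds U4/U6, is 1105 bases at chr2:96947661-96948765 on the minus strand. It had 0.0854, 0.0863 and 0.0757% with DMSO and 0.175, 0.149 and 0.117% with TMG (0.80 ± 0.20, SE; adjusted p = 0.0172, limma). EFTUD2 intron E021 had 0.144, 0.123 and 0.169% with DMSO and 0.248, 0.262 and 0.248% with TMG (0.79 ± 0.21; adjusted p = 0.019). In both, all TMG libraries were above all DMSO libraries.

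Intron E012 of PRPF4, a U4/U6 protein, had 0.375, 0.420 and 0.322% with DMSO and 0.605, 0.708 and 0.607% with TMG at 2 h (0.77 ± 0.22, SE; adjusted p = 0.0287, limma). It is 2201 bases at chr9:116050545-116052745 on the plus strand. Intron E005 of SNRNP40, 6238 bases at chr1:31734480-31740717 on the minus strand, had 0.705, 0.819 and 1.14% with DMSO and 1.58, 1.38 and 1.31% with TMG (0.70 ± 0.17; adjusted p = 0.0152). SF1 intron E014 rose from 0.926, 0.860 and 0.980% to 1.37, 1.32 and 1.12% (0.46 ± 0.11; adjusted p = 0.0166). SNRNP70 intron E010 rose from 7.09, 6.95 and 7.19% to 8.77, 8.91 and 8.03% (0.28 ± 0.07; adjusted p = 0.0198). None of these 4 overlapped between the groups. Without TMG 2 h library a, and likewise without library b, 0 of 27 passed relative to their gene, and 1 of 27 passed as counts without either. As counts 2 passed without DMSO 2 h library b, 3 without c and 4 without a. A fit of all libraries gave 0 on both scales, and with the variance trend on the mean log ratio 0 of 27 passed relative to their gene.

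With TMG for 6 h no member intron passed on either scale (0 of 27), where 0.191% of 4181 passed relative to their gene, 0.167% higher and 0.0239% lower, and 0.19% of 4219 as counts, 0.166% higher and 0.0237% lower. Of the members, 0 of 27 had an unadjusted p under 0.05 relative to their gene and 2 of 27 as counts, and DESeq2 called none. Without DMSO 6 h library b, 1 passed relative to its gene and 4 as counts. Of the 27 values relative to the gene, 25 were above 0, with a median of 0.16 against 0.17 over all introns tested. SNRNP70 intron E010 had 4.80, 6.16 and 5.18% with DMSO and 5.79, 6.56 and 5.89% with TMG. SF1 intron E014 had 1.20, 1.94 and 1.44% with DMSO and 1.55, 1.87 and 1.87% with TMG. DMSO library b held the highest DMSO value in both, inside the TMG range. SF3A2 intron E007 had 2.81, 3.63 and 2.75% with DMSO and 3.14, 3.10 and 3.25% with TMG, with overlap. PRPF38B intron E008 had 2.96, 3.83 and 3.86% with DMSO and 4.28, 4.49 and 3.94% with TMG, without overlap. XAB2 intron E012 had 1.38, 1.55 and 1.25% with DMSO and 1.25, 2.01 and 1.48% with TMG, which overlap.

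**Figure D4:**
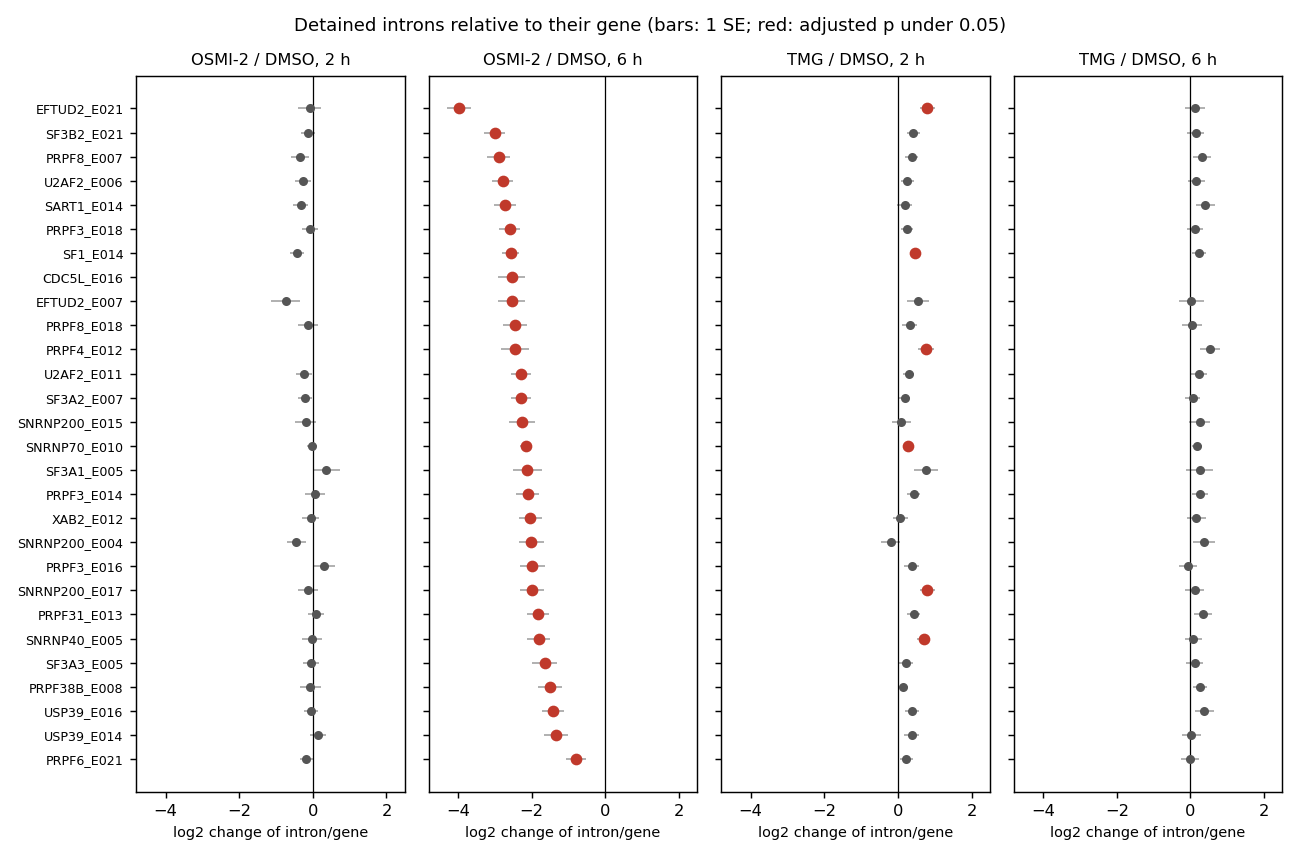
Log2 change of each detained intron relative to its gene (x axis) for 28 introns of snRNP protein genes (y axis, ordered by the change with OSMI-2 at 6 h) in the 4 drug comparisons, with bars of 1 SE and red points for an adjusted p under 0.05. All 28 points are red and below 0 with OSMI-2 at 6 h, and 6 of 27 are red and above 0 with TMG at 2 h. With OSMI-2 at 6 h, CDC5L E016 and PRPF4 E012 passed the count filter only through the DMSO group.

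The change with OSMI-2 differed from that with TMG at 6 h in 28 of 28 introns relative to their gene, all lower, where 85.5% of 4514 introns passed in limma's test of the difference, 0.0886% higher and 85.4% lower. CDC5L E016 was again in the test only through the DMSO 6 h group, and apart from it 27 of 27 passed. At 2 h the difference passed in 0 of 27, where 0.0781% of 3842 did; 6 of 27 and 624 of all had an unadjusted p under 0.05. For gene levels it passed in 7 of 38 at 6 h, 6 higher and 1 lower, where 19.9% of 12563 genes passed in edgeR's test, 16.9% higher and 2.97% lower, and in 0 of 38 at 2 h, where 0% of 12608 passed. The 2 drugs were given in separate experiments with separate DMSO libraries, so drug and experiment enter this difference together.

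Outside detained introns, single bins were compared with the rest of their gene. With OSMI-2 for 6 h, 16 of 579 member bins were lower and none was higher, where 2.34% of the 125960 bins tested passed, 0.463% higher and 1.88% lower. SNRNP200 E018 and SF3B1 E025 reached the minimum mean of 10 counts only through the DMSO 6 h group, and their falls support nothing. Apart from bins of that kind 14 of 576 passed. Of the 16, 6 bordered a detained intron, against 51 of the 579 tested. SNRNP200 E018 is among the 6, so that count rests in part on a bin the filter favoured, and the difference was not tested. Of the bins, 4 are shown that match an exon of the GENCODE 29 annotation (GRCh38) in width and in its spacing from part of the gene's other exon edges, chosen because 3 of them bring a stop codon into the reading frame of an annotated transcript and the other borders a detained intron. The exon of SNRNP70 is in a transcript classed as subject to nonsense-mediated decay and borders the detained intron E010. That of SF3B3 is in such a transcript too, that of SF3B1 is exon 5 of 7 of a short protein-coding transcript and holds its stop codon, and that of SF1 is in a processed transcript without a reading frame and borders the detained intron E014. The edges that matched at the same spacing were 19 of 28 for SNRNP70, 51 of 58 for SF3B3, 51 of 60 for SF3B1 and 27 of 38 for SF1. Capitals mark the annotated stop codon. For SNRNP70 and SF3B1 the sequence is given to the end of the stop codon, and for SF3B3 and SF1 it is the whole exon.
SNRNP70 E009, chr19:49102114-49102139, plus strand: ccaccacgcagctggcttgcagcTGA
SF3B3 E014, chr16:70550650-70550678, plus strand: gtggctggTGAaggtgctgatcaccacag
SF3B1 E025, chr2:197418932-197418951, minus strand: gcttctattctgctgctTGA
SF1 E015, chr11:64771464-64771537, minus strand: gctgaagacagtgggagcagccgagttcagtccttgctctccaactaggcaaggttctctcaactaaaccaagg

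The SNRNP70 exon, 60 bases at chr19:49605371-49605430 in the hg19 tables, had 0.873, 0.558 and 0.493% of the count in the rest of the gene in the DMSO 6 h libraries. With OSMI-2 at 6 h it had 0.174 and 0.199% (log2 change -1.74 ± 0.19, SE; adjusted p = 0.000461, limma), close to the 0.134 to 0.190% of DMSO at 2 h. The 29-base exon of SF3B3, the large scaffold of SF3B, had 0.107, 0.102 and 0.0504% with DMSO and 0.0183 and 0.0343% with OSMI-2 (-1.65 ± 0.36; adjusted p = 0.0329). These rest on 9 to 44 counts. Neither exon overlapped between the groups at 6 h.

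The largest change was that of bin E005 of U2AF2, 69 bases at chr19:56173137-56173205, which borders the detained intron E006. It had 0.312, 0.224 and 0.266% with DMSO and 0.0480 and 0.0515% with OSMI-2 (-2.39 ± 0.17, SE; adjusted p = 4.38e-05, limma). The exon of SF1 shown above, 74 bases at chr11:64538936-64539009, had 0.761, 0.599 and 0.376% with DMSO and 0.107 and 0.116% with OSMI-2 (-2.30 ± 0.23; adjusted p = 0.00026). The first bin of PRPF31, a U4/U6 protein, fell by 2.08 ± 0.27, from 1.20, 0.568 and 0.688% to 0.155 and 0.208%. A bin of SNRNP200 beside its detained intron E017 fell by 2.07 ± 0.31, from 0.0557, 0.0402 and 0.0507% to 0.00765 and 0.0144%, on 5 to 32 counts and subject to the filter as said above. In each of the 4 the treated libraries lay below all DMSO libraries. The authors' deposited table calls 38 member bins in this comparison, 14 higher and 24 lower, with the 4 sequences above among those lower. Those calls rest on the same libraries and are no separate check. The share of all bins called there is not given here, so the 38 are not read as particular to these genes. With the variance trend on the mean log ratio 0 passed, and without OSMI-2 library a 8 did.

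SF3B1, which clamps the branch point helix, had 1 bin that passed for both drugs, lower with OSMI-2 at 6 h and higher with TMG at 2 h. Its bin E026 of 1476 bases at chr2:198283676-198285151 lies next to the 56-base exon E025 and shares its class label, ClassI ALE. E026 had 1.33, 0.965 and 1.08% of the rest of the gene with DMSO at 6 h and 0.252 and 0.416% with OSMI-2 (-1.73 ± 0.23, SE; adjusted p = 0.0015, limma). With TMG at 2 h it was the 1 member bin of 579 that passed, where 0.0196% of the 132674 bins tested did, 0.0151% higher and 0.00452% lower. It rose from 0.901, 1.03 and 0.935% to 1.31, 1.38 and 1.18% (0.43 ± 0.07; adjusted p = 0.0419). The groups did not overlap in either comparison. Without TMG 2 h library a or b, or DMSO 2 h library a, the rise did not pass. E025 had 0.287, 0.277 and 0.284% with DMSO at 6 h and 0.0420 and 0.130% with OSMI-2, from 2 to 27 counts (-1.67 ± 0.39; adjusted p = 0.0485), a value the filter favoured as said above. With OSMI-2 at 2 h 0 of 572 member bins passed, where 0% of 116469 did, and 10 of 572 had an unadjusted p under 0.05. With TMG at 6 h 0 of 580 passed, where 0.0148% of 128296 did, 0.0117% higher and 0.00312% lower, and 29 of 580 had an unadjusted p under 0.05.

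**Figure D5:**
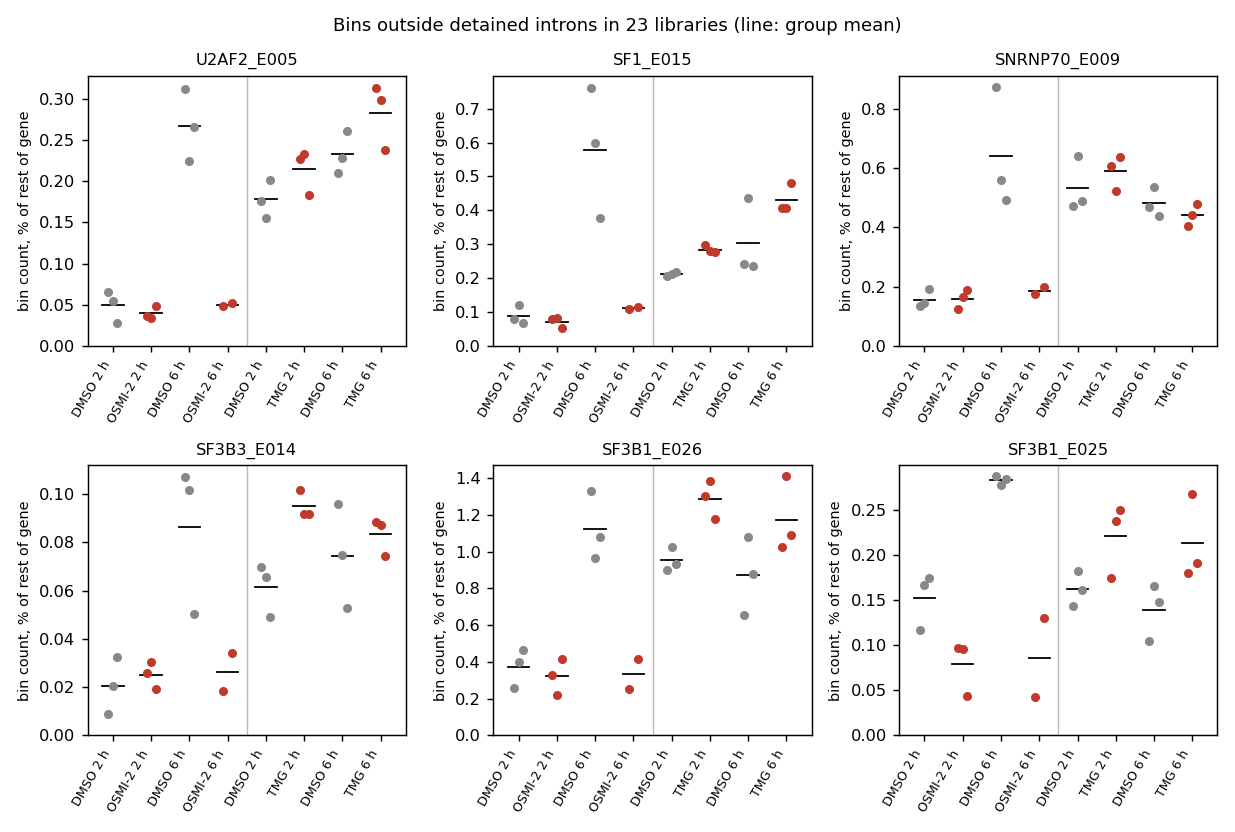
Count of a bin as a percent of the count in the rest of its gene (y axis) in 23 libraries for 6 bins outside detained introns, with DMSO in grey, drug in red and group means as lines; the vertical line parts the OSMI-2 experiment from the TMG experiment. OSMI-2 at 6 h is below DMSO at 6 h in all 6 panels, and the TMG 2 h libraries of SF3B1 E026 are at 1.18 to 1.38% above DMSO at 0.901 to 1.03%.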

How the data were processed

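Bin counts were deposited by the authors without normalization, 1 table per drug and time; STAR and hg19 are named in the submitters' processing notes, and the counter and its strand setting are not given in the sources used here. The tables also hold the authors' deposited p-values and log2 fold changes of bin usage, used as an alternative. The members and lists were chosen with earlier results of these data known. Libraries are named by group and column letter; 96 index-count files were not used.

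Gene counts were summed over bins not classed as detained introns. Genes and introns were tested with edgeR 4.0.16 (TMM over both, filterByExpr, glmQLFTest) in R 4.3.3. Introns relative to their gene, and bins relative to the rest of their gene, were tested as log2((count + 1)/(count + 1)) with limma 3.58.1, at a mean of at least 10 counts in both terms; these changes are on that scale. The variance trend was on the mean count, chosen after seeing that the trend on the mean log ratio, kept as an alternative, gave few calls: none among member bins, nor among member introns with TMG. Limma shares variance across introns, which sets its small p-values with few libraries. Tests were two-sided with Benjamini-Hochberg adjustment over all features at 0.05. A GC content was known for 91.3% of genes, and DESeq2 1.42.0 was an alternative. Genes, introns and bins given by library are, in each comparison, those past the threshold, up to 4 in each direction by size of change, or, where fewer than 2 passed, the member of each role with the highest mean count; fewer bins are given than passed, and the bins with a printed sequence, SART1 and the other members named with a value were added after their values were seen. The scripts were tested on simulated counts. A result of the list of other spliceosome genes and a marker value are not reported here.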

Additional observations from a re-analysis of the deposited data

Results flagged for a closer look

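The change with OSMI-2 differed from the change with TMG at 6 h in a direct test of the difference for 7 of 38 gene levels (edgeR), where 19.9% of all genes passed, and for 28 of 28 detained introns relative to their gene (limma), where 85.5% of all introns passed. A positive value means that the log2 change was higher with OSMI-2. The differences were 1.08 for U2AF2, 1.02 for SART1, 1.01 for SF3A2, 0.97 for SF3A1, 0.95 for SF3B5, 0.88 for SF3B4 and -1.01 for SNRNP40. Leaving out 1 of the 11 libraries moved the count of genes between 0 and 33; it was 33, 32 of them higher, without DMSO library a of the OSMI-2 experiment, where 75.0% of all genes passed, and 0 without OSMI-2 library b, TMG library b or c, or DMSO library a of the TMG experiment. For the introns the 4 largest differences were -4.10 for EFTUD2 E021, -3.48 for CDC5L E016, -3.22 for PRPF8 E007 and -3.15 for SF3B2 E021, and CDC5L E016 was in the test only through the DMSO 6 h group, so its value supports nothing; 27 of 27 passed apart from it. The count of introns was 27 or 28 whichever library was left out. Dixon's rule for single outlying samples was not applied, since no group has 4 libraries.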

How the results depend on the processing

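No paired analysis was possible because the count columns are lettered and the letters are not tied to numbered replicates, so the replicate block was not run. Single genes, introns and bins kept their direction and their side of the threshold in 1770 alternatives, lost the threshold in 332 and reversed in 19. Low counts limit the smallest intron and bin shares, and where 1 library of a pair is left out the lone library is assumed to vary like the others; causes of the changes below were not tested.

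Member genes past the threshold with OSMI-2 at 6 h (1) numbered 0 with median-of-ratios size factors, 2 with TMM over genes only, 4 in DESeq2, 12 with the GC trend removed and 24 in a fit of all libraries. With TMG at 2 h (0) member genes numbered 1 with TMM over genes only and 1 in DESeq2, where 6.21% and 10.5% of all genes passed. With TMG at 6 h (2) they numbered 0 in a fit of all libraries. From DMSO 2 h to 6 h in the OSMI-2 experiment (11) they numbered 0 with TMM over genes only, 19 in DESeq2, 28 with the GC trend removed and 30 in a fit of all libraries. The shares of all genes were 9.15%, 24.0% and 42.8% in the settings before the last. In the TMG experiment (15) a fit of all libraries gave 1. For the difference between the drugs at 6 h (7) member genes numbered 20 with median-of-ratios size factors, 3 with TMM over genes only, 21 in DESeq2 and 20 with the GC trend removed. The shares of all genes were 43.2%, 8.25%, 45.1% and 43.7% in that order.

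Introns as counts with OSMI-2 at 6 h (27) numbered 6 with TMM over detained introns only, 1 higher and 5 lower, a scaling that sets the typical intron to no change. With TMG at 2 h (6) they numbered 0 with that scaling, 3 in DESeq2 and 0 in a fit of all libraries. From DMSO 2 h to 6 h they numbered 3 with that scaling in the OSMI-2 experiment (26), and in the TMG experiment (1) 3 with TMM over genes only, 2 with that scaling, 0 in DESeq2 and 5 in a fit of all libraries. Relative to the gene, introns with TMG at 2 h (6) numbered 0 with the variance trend on the mean log ratio and 0 in a fit of all libraries. Bins with OSMI-2 at 6 h (16) numbered 0 with that trend, 9 at a minimum mean of 50 counts and 38 in the authors' deposited test. With TMG at 2 h (1) they numbered 0 with that trend, 0 at 50 counts, 2 in the authors' deposited test and 0 in a fit of all libraries. The shares of all bins in these alternatives are not given here.

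With each library left out in turn, genes ranged from 0 to 21 with OSMI-2 at 6 h, 0 to 1 with TMG at 2 h, 1 to 10 with TMG at 6 h, 0 to 21 and 6 to 21 over time in DMSO of the OSMI-2 and TMG experiments, and 0 to 33 for the difference at 6 h. Introns as counts ranged from 27 to 27 with OSMI-2 at 6 h, 1 to 8 with TMG at 2 h, 0 to 4 with TMG at 6 h, and 25 to 27 and 0 to 5 over time in DMSO. Relative to the gene they ranged from 27 to 28 with OSMI-2 at 6 h, 0 to 7 with TMG at 2 h, 0 to 1 with TMG at 6 h and 27 to 28 for the difference at 6 h. Bins ranged from 8 to 16 with OSMI-2 at 6 h and 0 to 1 with TMG at 2 h; the other counts stayed at 0.

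TMM over detained introns only shifts all introns alike and sets the typical one to no change, so introns that moved less than the typical one change sign by construction. These log2 values had the other sign. With OSMI-2 at 6 h they were 0.076 for PRPF31 E013, 0.164 for SF3A1 E005, 0.021 for SF3A2 E007, 0.071 for U2AF2 E011 and 0.102 for XAB2 E012. With TMG at 2 h SNRNP70 E010 had -0.084. Over time in DMSO of the OSMI-2 experiment they were -0.522 for EFTUD2 E007, -0.501 for PRPF31 E013, -0.169 for PRPF8 E007, -0.184 for SART1 E014, -0.161 for SF3A1 E005, -0.328 for SNRNP200 E004, -0.216 for SNRNP70 E010, -0.182 for U2AF2 E011, -0.267 and -0.122 for USP39 E014 and E016, and -0.035 for XAB2 E012. With the GC trend removed, SF3A2 had 0.005 and SNRPF -0.033 over time in DMSO of the TMG experiment.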
